A study of Mus musculus with 9 samples.

Results

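DNA methylation was followed at 6 mouse genes of 4 imprinted domains, H19 with Igf2, Dlk1 with Meg3, Rasgrf1 and Gnas, while cells were grown with the demethylating drug 5-aza-dC. The genes were taken by name, with 5 kb beyond each gene end and 30 kb for Rasgrf1, whose known imprinting control region lies far upstream. Only CpGs with 1 or more reads in each of the 9 libraries were kept, which left 526 of the 1096949 such CpGs of the whole series, from 6 of the 33988 genes with one in their window. The 526 CpGs were divided as 9 for H19, 95 for Igf2, 42 for Dlk1, 28 for Meg3, 60 for Rasgrf1 and 292 for Gnas. Neighbouring CpGs at most 200 bp apart formed 61 runs, 8 of them a single CpG. A run with at least 5 CpGs and at least 10 CpG calls in every library is called a block below, and 27 of the 38469 blocks of the genome lay at these genes. H19 had none, Igf2 had 7, Dlk1 had 2, Meg3 had 1, Rasgrf1 had 4 and Gnas had 13.

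The assay was reduced representation bisulfite sequencing (RRBS), which reads methylation in the CpG-rich part of the genome. All libraries came from Abl.1, a single clone of immortalised B cells from a female F1 mouse of the cross 129S1/SvImJ x CAST/EiJ, so each imprinted gene is present as 1 copy from each parent strain. The control cells were grown for 2 days in medium with 1% DMSO, the solvent of the drug, and gave 2 libraries. The treated cells were grown for 2 days with 0.2 µM (2 libraries), 2 µM (3 libraries) or 10 µM (2 libraries) of 5-aza-dC. This deoxycytidine analogue traps DNA methyltransferases on replicating DNA. Dead cells were removed from every culture on a density gradient before DNA was taken. The labels number the libraries of a group as replicates of the library preparation and name no separate cultures, so the p-values below measure only the spread between these libraries.

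An imprinted gene is used mainly from the copy of one parent. At an imprinting control region the DNA of one parental copy is methylated in the egg or the sperm, and that mark is normally kept in body cells when the rest of the genome is reset. A region with 1 methylated and 1 unmethylated copy therefore reads as an intermediate level. The control regions of H19-Igf2, Dlk1-Meg3 and Rasgrf1 are known to be methylated on the paternal copy, and those of Gnas on the maternal copy. The alleles were not separated here, so a difference between the 2 copies and a mixture of cells cannot be told apart in these levels. Whether the measured CpGs differ in sequence between the 2 parent strains was not checked.

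The annotated starts with at least 8 measured CpGs in a window of 250 bases before to 50 after show what kind of sequence the values come from. The 250 bases before each start are given 5′ to 3′ from RefSeq (GRCm38.p6, the assembly of mm10), in lower case with the measured CpGs in capitals. They are shown because they hold the one block that gained methylation at 0.2 µM, the start that stayed unmethylated in every library, and starts of Igf2 and Meg3 that lost methylation.
Gnas, first start (Nesp), chr2:174284070-174284319, plus strand: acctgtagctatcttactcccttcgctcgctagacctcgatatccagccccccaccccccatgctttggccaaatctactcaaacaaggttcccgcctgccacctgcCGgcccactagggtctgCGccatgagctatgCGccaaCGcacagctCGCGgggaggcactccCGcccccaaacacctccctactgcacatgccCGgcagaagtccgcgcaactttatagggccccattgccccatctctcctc
Gnas, main start, chr2:174329756-174330005, plus strand: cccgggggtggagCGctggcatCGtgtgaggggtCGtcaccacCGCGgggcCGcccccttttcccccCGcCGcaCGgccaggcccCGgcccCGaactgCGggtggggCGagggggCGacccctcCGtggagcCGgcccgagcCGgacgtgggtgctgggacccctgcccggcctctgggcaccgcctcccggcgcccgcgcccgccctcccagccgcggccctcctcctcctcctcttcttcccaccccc
Igf2, inner start, chr7:142658805-142659054, minus strand: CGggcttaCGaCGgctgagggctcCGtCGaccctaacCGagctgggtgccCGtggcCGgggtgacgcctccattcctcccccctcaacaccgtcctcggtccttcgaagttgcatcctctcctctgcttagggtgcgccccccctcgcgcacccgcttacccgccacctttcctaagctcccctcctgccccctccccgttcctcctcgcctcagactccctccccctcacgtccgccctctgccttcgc
Meg3, start, chr12:109540746-109540995, plus strand: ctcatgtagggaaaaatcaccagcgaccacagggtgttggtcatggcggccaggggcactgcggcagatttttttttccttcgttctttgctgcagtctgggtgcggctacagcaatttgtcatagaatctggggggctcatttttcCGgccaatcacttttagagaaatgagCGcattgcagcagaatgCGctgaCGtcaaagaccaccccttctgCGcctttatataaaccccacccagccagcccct
The first Gnas start has 8 of its 14 CpGs measured, the main Gnas start 17 of 29, the Igf2 start 8 of 22 and the Meg3 start 5 of 10. The motif TGCCGC, the core bound by the imprint protein ZFP57 when methylated, was searched on both strands of the 300-base windows and occurred in 3813 of 32851 RefSeq promoters (11.6%). Among the windows of 5 of the genes, with H19 not searched, it matched once at this Meg3 start and once at an Igf2 start with no measured CpG.

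Reads at CpGs numbered between 8590883 and 16495535 per library, and the median CpG had 3 to 5 reads. DMSO replicate 2 and the 10 µM replicate 2 were the shallowest. At gene ends in DMSO, the B lineage genes Ebf1 and Cd79b were at 0.268% and 0.763% and Cd79a at 17.6%, with Pax5 and Blnk not covered. Of the T cell genes, Cd4 was at 0.541% and Lck at 100%, and of the myeloid genes Csf1r was at 54.1% and Itgam at 73.1%. The other 3 T cell and 2 myeloid genes listed had no covered CpG, and these are methylation levels only, so no expression was checked.

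Most blocks of the 6 genes lost methylation at the lower 2 doses. Against DMSO, 16 of the 27 blocks fell at 0.2 µM, where 55.8% of all blocks of the genome fell, and 17 fell at 2 µM, where 44.5% fell. At 10 µM 5 blocks fell, beside 12% of all blocks. Each call is an adjusted p under 0.05 in a quasi-binomial model fitted to all 38469 blocks, with the spread moderated by limma. One block, at the first start of Gnas, rose at 0.2 µM, as did 0.0702% of all blocks. No block rose at 2 µM (0.122% of all blocks, 0.0104% with the limit described below) or at 10 µM (0.151%), though 1 had an unadjusted p under 0.05 at each of these doses. At 10 µM 11 blocks were lower with an unadjusted p under 0.05 in this model, a count not made for all blocks. The median change from DMSO to 10 µM was -9.84 percentage points in the 27 blocks and -4.71 in all blocks. By gene, the blocks that fell at 0.2 µM were 6 of Igf2, 1 of Dlk1, 1 of Meg3, 1 of Rasgrf1 and 7 of Gnas, and at 2 µM these numbers were the same except for 7 of Igf2. The CpG calls of a block come from few DNA fragments. When the calls of a block were limited to the reads of its deepest CpG, 3 blocks fell at 0.2 µM (33.3% of all blocks), 5 at 2 µM (19%) and 0 at 10 µM (0.0182%), and the rise at the first Gnas start was still called. Without the first 0.2 µM library 7 blocks fell at 0.2 µM, without DMSO replicate 1 there were 8, and without DMSO replicate 2 there were 10. Without DMSO replicate 1 the number at 2 µM was 11. At 10 µM no block fell without either DMSO library, and 2 fell without 10 µM replicate 2.

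Stretches at an intermediate level in DMSO, set as 35 to 65% of the calls of both DMSO libraries together, were found in 3 of the 27 blocks, 1 each in Igf2, Rasgrf1 and Gnas. Outside these genes, 4112 autosomal blocks were in the same range, of 38469 blocks in the whole genome. Such a level was therefore common elsewhere and does not by itself mark an imprinted gene. A further 7 runs of 2 or more CpGs, with too few CpGs or calls to be tested, were also in this range, 1 at H19, 1 at Igf2, 2 at Dlk1 and 3 at Rasgrf1, and so was 1 single CpG of Rasgrf1 (57.1%). The DMSO levels chose these stretches and are a description. A test over the 4 groups is therefore given with each stretch only where it was chosen on 1 DMSO library and read in the other 8 libraries. Values of this test with DMSO both choosing and tested are listed only among the alternatives at the end and are no evidence of a change. The adjusted p-values come from the fit to all blocks, which chose no block by its level. For these 3 stretches the comparisons with DMSO still use the DMSO values that chose them. Just outside the range were a block of Igf2 at 66.2%, one of Rasgrf1 at 66.7%, one of Gnas at 67.6% and another of Gnas at 33.3%, and just inside it was the H19 run at 65%.

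**Figure D1:**
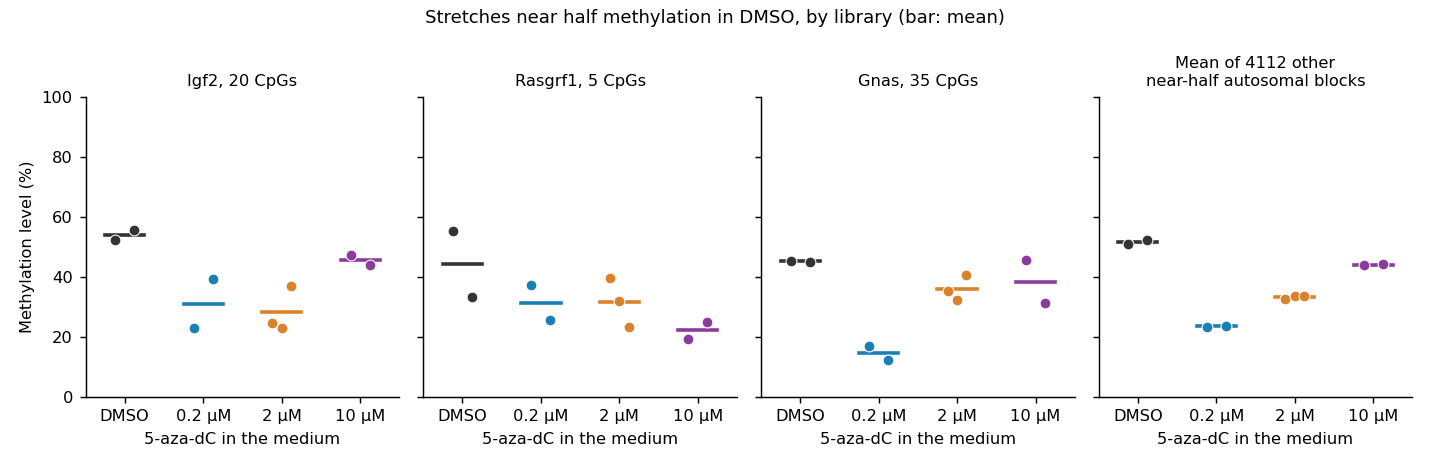
Methylation level (%) of the 3 intermediate blocks in each library (points) with the group mean (bar), by dose of 5-aza-dC, and in the last panel the mean over 4112 other autosomal blocks chosen in DMSO in the same way. The Gnas block is lowest at 0.2 µM (12.2 and 16.9%), the Igf2 block is low at 0.2 and 2 µM, and the Rasgrf1 block is lowest at 10 µM (19.3 and 25.0%).

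The Gnas stretch lay at chr2:174328397-174328739, in the annotated gene and 629 bp downstream of the start of its exon 1A transcript, where one of the maternal methylation marks of the domain is known to lie. Gnas encodes the stimulatory G protein alpha subunit and several other products from alternative first exons. Of its 35 CpGs, 30 were between 20 and 80% methylated in DMSO, so the intermediate level was spread over most of the stretch. The stretch stood at 45.4% and 44.8% in the DMSO libraries, 16.9% and 12.2% at 0.2 µM, 35.2%, 32.2% and 40.4% at 2 µM, with 45.5% and 31.1% at 10 µM. Both 0.2 µM libraries were below all other 7 libraries, and 1 of the 10 µM libraries was as high as DMSO. The mean fell from 45.1% ± 0.446 (SD, n = 2) in DMSO to 14.5% ± 3.29 (SD, n = 2) at 0.2 µM (adjusted p = 0.0002247). At 2 µM it was 35.9% ± 4.18 (SD, n = 3; adjusted p = 0.272) and at 10 µM 38.3% ± 10.2 (SD, n = 2; adjusted p = 0.736). The fall at 0.2 µM was called under every alternative that gave this block a value, with adjusted p up to 0.0362. The stretch was 21.4 percentage points higher at 2 than at 0.2 µM (adjusted p = 0.0229), a call made for 4.85% of all blocks. That call was lost with calls limited to the deepest CpG (adjusted p = 0.366), without 0.2 µM replicate 1 (0.155) or 2 (0.229) and without 2 µM replicate 3 (0.0605), and was kept under 10 of 18 alternatives. Chosen on DMSO replicate 1 and read in the other 8 libraries, this stretch gave an exact permutation p of 0.05 over the 4 groups, which is not under the threshold. Chosen on DMSO replicate 2, 3 Gnas blocks entered. They were this stretch and 2 blocks past the first Gnas start, chr2:174284704-174284852 and chr2:174285389-174285712. Against DMSO replicate 1 they together changed by -37.1, -23.1 and -11.0 percentage points at 0.2, 2 and 10 µM. These joint values, and their permutation p among the alternatives below, are not those of this stretch alone.

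At the other starts of Gnas the levels differed from this stretch. The main start, downstream of it, from which the G protein alpha subunit itself is made and which is known to carry no imprint mark, is the unmethylated sequence printed above. Its 2 blocks with 111 CpGs, at chr2:174329666-174330605 and chr2:174330822-174330956, were between 0 and 1.41% in all 9 libraries. A library listed at 0 there had 51 to 104 calls, which allows up to 2.88 to 5.88% by counting error alone. Just upstream of the intermediate stretch, a block of 12 CpGs from 54 bp past the exon 1A start stood at 29.5% and 5.71% in the DMSO libraries and between 12 and 45.9% in the treated ones, with no call.

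**Figure D2:**
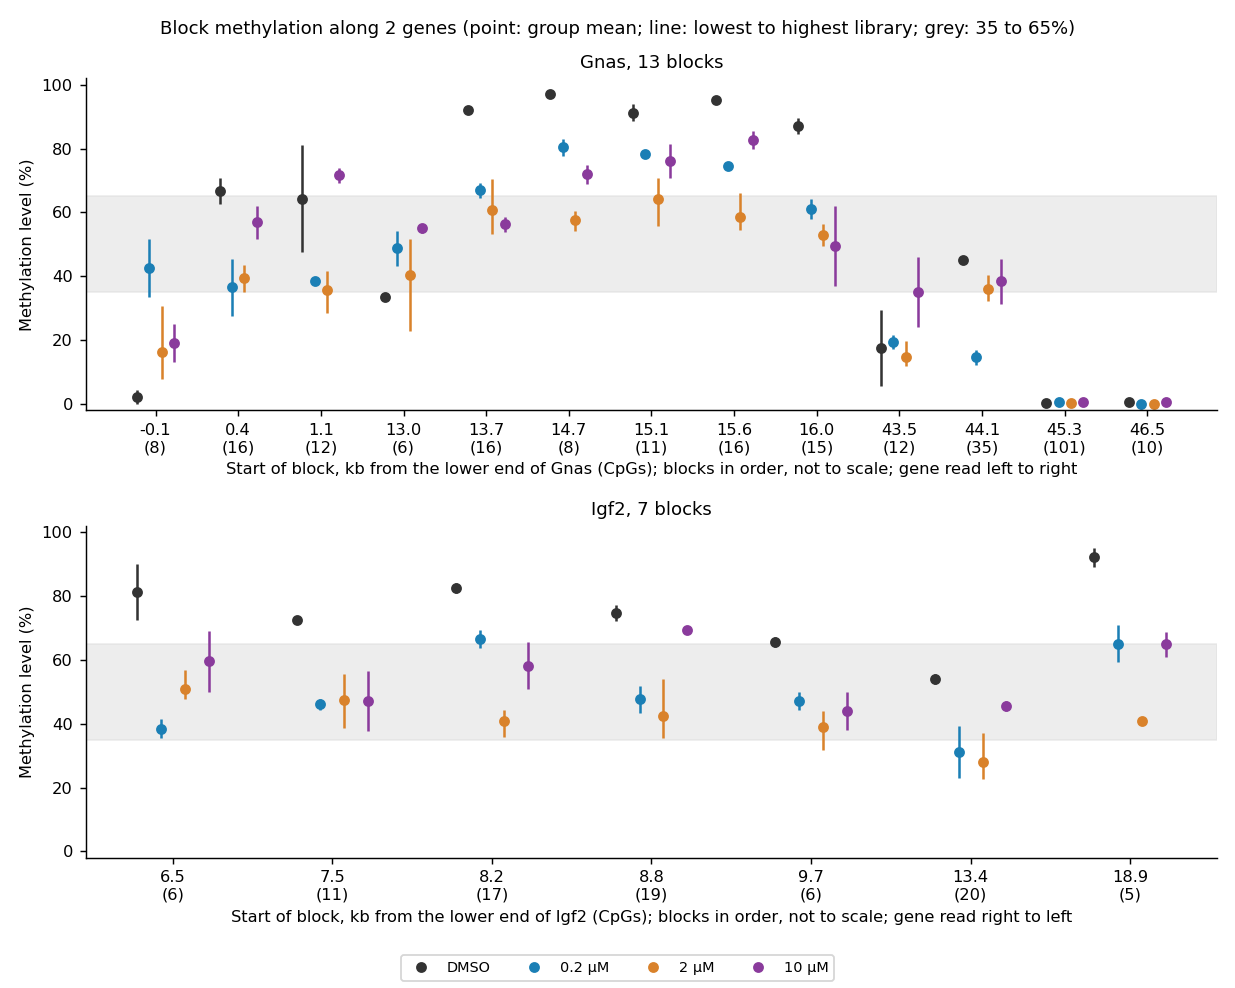
Methylation level (%) of the 13 blocks of Gnas and the 7 blocks of Igf2 in order along each gene, as group mean (point) and range of libraries (line) by dose, over the band from 35 to 65% (grey). In Gnas the 5 blocks from 13.7 to 16.0 kb start near full methylation in DMSO and have their lowest mean at 2 µM in 3 of them and at 10 µM in the other two, the block at 44.1 kb is lowest at 0.2 µM, and the last 2 stay near 0. A group mean can lie in the band where the pooled DMSO level does not.

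The 5 blocks 13.7 to 16.0 kb into Gnas, chr2:174297978-174300607, hold 66 CpGs in the area where the start of the XL product is known to carry a maternal methylation mark. They did not overlap the antisense gene Gnasas1, and the nearest annotated Gnas start used here was 13658 bp or more away. Whether they lie in the mark was therefore not checked. They stood between 84.4 and 97.6% in each DMSO library. The libraries ranged from 58.0 to 83.2% at 0.2 µM, 49.6 to 70.7% at 2 µM and 37.0 to 85.5% at 10 µM. In the block chr2:174299016-174299143 the levels were 96.6% and 97.6% in DMSO, 77.8% and 83.2% at 0.2 µM, 54.0%, 58.3% and 60.3% at 2 µM, with 75.0% and 69.0% at 10 µM. The 4 groups did not overlap there, and 2 µM was the lowest. All 5 blocks fell at 2 µM, 4 fell at 0.2 µM and 3 at 10 µM, beside 44.5%, 55.8% and 12% of all blocks. Of these calls, those at 2 µM for this block (adjusted p = 0.0002279) and for chr2:174299898-174300052 (adjusted p = 3.236e-05) were also made with calls limited to the deepest CpG (0.0289 and 0.0348), and the other calls of the 5 blocks were not. These 2 calls were kept under every alternative that gave these blocks a value. In front of them, a block of 6 CpGs at chr2:174297367-174297431 was at 33.3% in both DMSO libraries and between 22.7 and 56.4% in the treated ones, with no call.

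At the first Gnas start the printed window gained methylation. This start makes the secretory protein NESP55, known to be expressed from the maternal copy, and its paternal copy is known to gain methylation in body tissues. The block of 8 CpGs at chr2:174284177-174284271 ends 49 bp before it, within the antisense gene Gnasas1. The level was 4.29% and 0% in the DMSO libraries, where 0 of 35 calls allows a share of up to 8.57%. It was 51.8% and 33.3% at 0.2 µM, 30.6%, 10.7% and 7.78% at 2 µM, with 13.2% and 25.0% at 10 µM. Every treated library was above both DMSO libraries, and the 0.2 µM libraries were the highest. The mean rose from 2.14% ± 3.03 (SD, n = 2) to 42.6% ± 13.0 (SD, n = 2) at 0.2 µM (adjusted p = 0.0006475), while the means at 2 µM, 16.4% ± 12.4 (SD, n = 3), and at 10 µM, 19.1% ± 8.37 (SD, n = 2), were not called (adjusted p = 0.0709 and 0.113). The block was 1 of 27 in the genome that rose at this dose and 1 of 2 that did so with calls limited to the deepest CpG (adjusted p = 0.0381, 0.0052% of blocks). Its deepest CpG had 5 to 13 reads in a library, so each level rests on few DNA molecules. With neighbours up to 500 bp apart joined, this block merges with the next one downstream and the joint change was -6.93 percentage points, not called. That next block, of 16 CpGs at 384 bp past the start, was at 70.9% and 62.7% in DMSO and fell at 0.2 µM to 27.5% and 45.5% (adjusted p = 0.00141) and at 2 µM to 35.1 to 43.5% (adjusted p = 0.0018). Neither fall was called with calls limited to the deepest CpG (adjusted p = 0.126 and 0.137), the first was lost without 0.2 µM replicate 1 (0.0547) and the second without DMSO replicate 1 (0.0577). Another block of Gnas, chr2:174285389-174285712 (12 CpGs), was at 81% and 47.6% in DMSO, 38.7% and 38.5% at 0.2 µM, 37%, 41.7% and 28.4% at 2 µM, with 74% and 69.2% at 10 µM. It was called at 0.2 µM (adjusted p = 0.0316), at 2 µM (0.0184) and as a rise from 2 to 10 µM (0.0395), calls kept under 11, 12 and 5 of 17 alternatives and lost with limited calls (0.183, 0.168 and 0.568). Without DMSO replicate 1 the falls had adjusted p-values of 0.741 and 0.677.

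**Figure D3:**
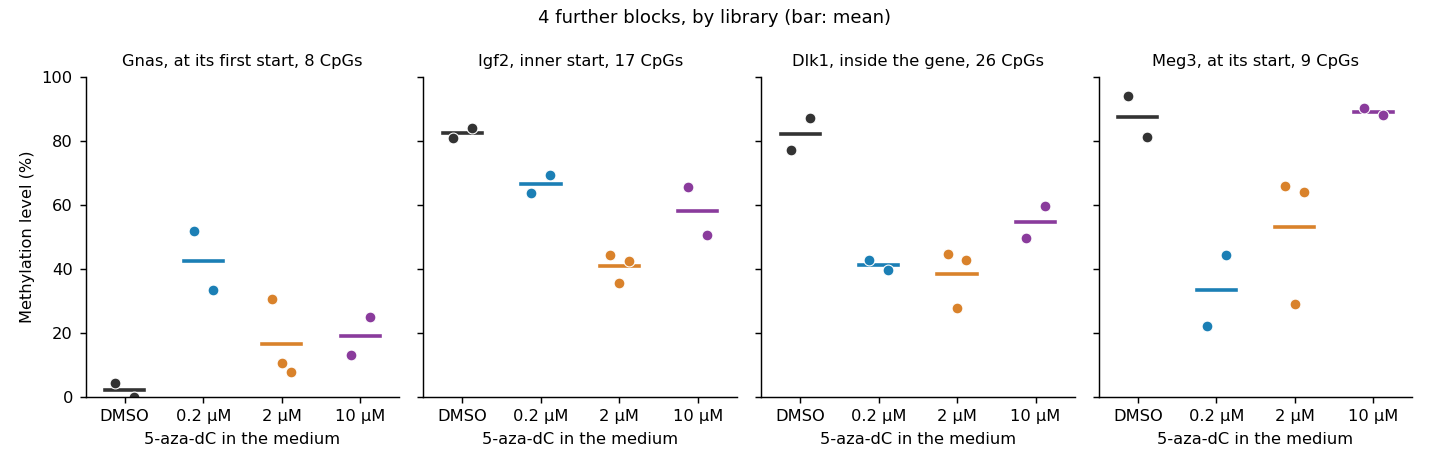
Methylation level (%) in each library (points) and group mean (bar) by dose, for the blocks at the first Gnas start, the inner Igf2 start, inside Dlk1 and at the Meg3 start. The Gnas block rises from 0 to 4.29% in DMSO to 33.3 and 51.8% at 0.2 µM, and the other 3 fall from DMSO, with Meg3 at 10 µM (88.2 and 90.2%) within the range of its DMSO libraries.

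Igf2 encodes a fetal growth factor known to be expressed from the paternal copy. Its intermediate stretch, chr7:142664194-142664368, lay inside the gene 2622 bp below its upper end, which is the 5′ end of this minus-strand gene, and overlapped the antisense gene Igf2os. Single CpGs of the 20 ranged from 0 to 100% in DMSO and 12 were between 20 and 80%, so part of the intermediate level came from neighbouring high and low CpGs. The levels were 52.4% and 55.7% in DMSO, 22.9% and 39.3% at 0.2 µM, 24.6%, 22.8% and 37.1% at 2 µM, with 47.3% and 43.9% at 10 µM. All 5 libraries of the lower doses were below the DMSO and 10 µM libraries. The mean was 54.0% ± 2.32 (SD, n = 2) in DMSO and fell to 31.1% ± 11.6 (SD, n = 2) at 0.2 µM (adjusted p = 0.0121) and 28.2% ± 7.74 (SD, n = 3) at 2 µM (adjusted p = 0.0028). At 10 µM it was 45.6% ± 2.37 (SD, n = 2; adjusted p = 0.608). With calls limited to the deepest CpG neither fall was called (adjusted p = 0.154 and 0.0777), and the fall at 0.2 µM was also lost without DMSO replicate 2 (0.0792) or 0.2 µM replicate 1 (0.188). With at least 5 reads at every CpG the adjusted p-values were 0.119 and 0.0665. Chosen on DMSO replicate 1 and read in the other 8 libraries, this stretch gave an exact permutation p of 0.106 over the 4 groups. Chosen on DMSO replicate 2, 2 Igf2 blocks entered, this stretch and chr7:142660446-142660587. Against DMSO replicate 1 they together changed by -21.4, -26.4 and -12.6 percentage points at 0.2, 2 and 10 µM. These joint values, and their permutation p among the alternatives below, are not those of this stretch alone. The short intermediate run of Igf2, chr7:142665343-142665554 (4 CpGs), was at 47.8% and 38.5% in DMSO, 28.6% and 33.3% at 0.2 µM, 55.6%, 46.7% and 25% at 2 µM, with 61.1% and 73.3% at 10 µM.

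The other 6 blocks of Igf2 were at 66.2 to 93.3% in DMSO. At the inner start printed above, the block chr7:142658997-142659177 (17 CpGs) stood at 80.9% and 84.2% in DMSO, 63.7% and 69.4% at 0.2 µM, 44.4%, 35.7% and 42.6% at 2 µM, with 65.6% and 50.8% at 10 µM. The 2 µM libraries were the lowest and did not overlap any other group. The fall at 2 µM, to 40.9% ± 4.60 (SD, n = 3) from 82.5% ± 2.38 (SD, n = 2), was called under every alternative that gave this block a value (adjusted p = 4.723e-05, and up to 0.0374). It was also 1 of the 0.556% of all blocks that were lower at 2 than at 0.2 µM (adjusted p = 0.0287), a call lost with calls limited to the deepest CpG (0.527), without either 0.2 µM library (0.174 and 0.234) and without 2 µM replicate 2 (0.0758), and kept under 12 of 18 alternatives. The falls of this block at 0.2 µM (adjusted p = 0.0379) and 10 µM (0.0214) were likewise lost with limited calls (0.393 and 0.552) and kept under 9 and 12 of 18 alternatives. The first was also lost without DMSO replicate 1 (0.0789) or 2 (0.177) or 0.2 µM replicate 1 (0.191) or 2 (0.0585), and the second without DMSO replicate 1 (0.112) or 2 (0.168) or 10 µM replicate 2 (0.172). The block 2861 bp beyond the upper end of the gene, chr7:142669677-142669731 (5 CpGs), had the same order of doses. It was at 95.2% and 89.3% in DMSO, 59.3% and 70.8% at 0.2 µM, 42%, 39.8% and 40.5% at 2 µM, with 60.9% and 68.9% at 10 µM, and its fall at 2 µM was kept under every alternative that gave it a value (adjusted p = 0.0002253). The block at an Igf2 start near 6.5 kb, chr7:142657283-142657500 (6 CpGs), was instead lowest at 0.2 µM, at 41.4% and 35.4% after 90.2% and 72.4% in DMSO (adjusted p = 0.00222, 0.0227 with limited calls, 0.0748 without DMSO replicate 1).

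H19 makes a non-coding RNA from the maternal copy, and the control region that it shares with Igf2 is known to lie upstream of its start. Its 9 measured CpGs formed no block, so no test was made. The run at chr7:142581142-142581188 (2 CpGs), 2996 bp beyond the gene's 5′ end and in the area where the control region is known, was the intermediate one. Over the DMSO calls together it was at 65% (13 of 20 calls, 95% Wilson interval 43.3 to 81.9%), at 0.2 µM at 34.9% (22.4 to 49.8%), at 2 µM at 40% (28.6 to 52.6%) and at 10 µM at 42.5% (28.5 to 57.8%). By library it was 72.7% and 55.6% in DMSO, 30% and 39.1% at 0.2 µM, 66.7%, 37.5% and 16.7% at 2 µM, with 37.0% and 53.8% at 10 µM, so the 2 µM libraries covered nearly the whole range. The run just beyond the 5′ end (chr7:142578191-142578240, 3 CpGs) went from 83.3% (60.8 to 94.2%) in DMSO to 19.5% (12.2 to 29.7%) at 0.2 µM, 34.3% (26.0 to 43.6%) at 2 µM and 42.9% (31.4 to 55.1%) at 10 µM. Inside the gene, the run at chr7:142575968-142576013 (2 CpGs) was at 78.1% (61.2 to 89.0%), 18.2% (9.51 to 32.0%), 38.2% (27.6 to 50.1%) and 60% (42.3 to 75.4%) in the same order. In both of these runs 0.2 µM was the lowest dose and its interval did not reach that of DMSO. These intervals and limits cover counting error only, since PCR copies were not separated and CpGs of one fragment are not independent.

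**Figure D4:**
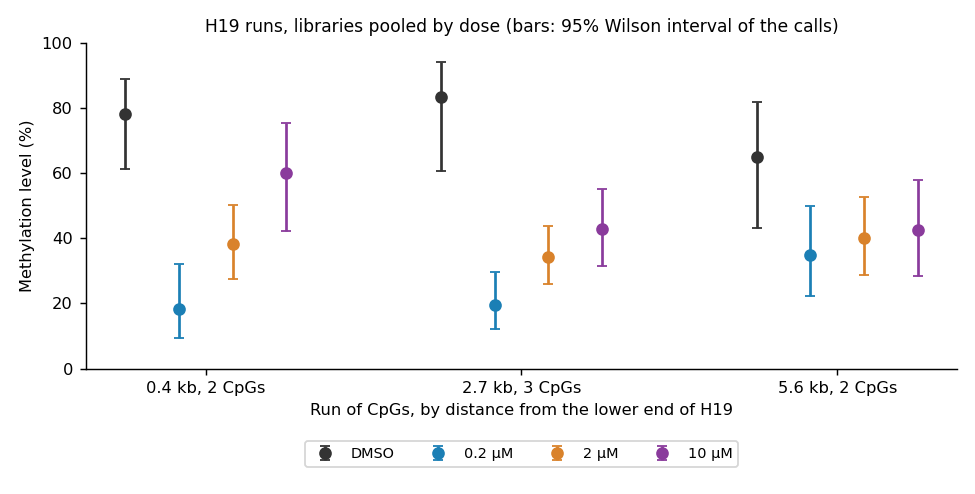
Methylation level (%) of the 3 H19 runs of 2 or 3 CpGs over the pooled calls of each dose, with 95% Wilson intervals, by distance from the lower end of the gene; the last run lies where the control region is known. At 5.6 kb the DMSO level is 65% and all doses are between 34.9 and 42.5% with overlapping intervals, and in the other 2 runs 0.2 µM is the lowest (18.2 and 19.5%).

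When the runs of 2 or more CpGs at an intermediate DMSO level were added to the Igf2 block, the 3 stretches and 26 CpGs of the H19-Igf2 domain averaged 53.6% ± 0.473 (SD, n = 2) in DMSO. At 0.2 µM they averaged 31.6% ± 10.3 (SD, n = 2). The average was 30.8% ± 4.92 (SD, n = 3) at 2 µM, and 10 µM gave 47.3% ± 0.264 (SD, n = 2), with no test since DMSO chose the runs.

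Dlk1, which encodes a membrane protein of the Notch ligand type known to be expressed from the paternal copy, and Meg3, a non-coding RNA of the maternal copy, had no intermediate block. The Dlk1 block with the most calls, chr12:109453340-109453672 (26 CpGs), lay inside the gene 517 bp from an annotated start. It was at 77.2% and 87.1% in DMSO, 42.9% and 39.7% at 0.2 µM, 44.5%, 27.8% and 42.8% at 2 µM, with 49.8% and 59.7% at 10 µM. All treated libraries were below both DMSO libraries. The mean fell from 82.1% ± 6.96 (SD, n = 2) to 41.3% ± 2.21 (SD, n = 2) at 0.2 µM (adjusted p = 4.379e-05) and 38.4% ± 9.17 (SD, n = 3) at 2 µM (adjusted p = 1.932e-05), and both calls were kept under all 17 alternatives that gave this block a value. The fall to 54.7% ± 7 (SD, n = 2) at 10 µM (adjusted p = 0.00981) was lost with limited calls (0.454) and without DMSO replicate 1 (0.0559) or 2 (0.137) or 10 µM replicate 1 (0.0870), and kept under 12 of 17 alternatives. The other Dlk1 block, upstream of the gene, was at 11.4% in DMSO with no call. The 2 short intermediate runs of Dlk1, chr12:109449906-109449927 (3 CpGs, 63.2% in DMSO) and chr12:109453918-109453968 (2 CpGs, 38.7%), together were at 44.4% and 52.2% in DMSO, 25.0% and 14.3% at 0.2 µM, 17.2%, 30.4% and 41.2% at 2 µM, with 51.9% and 41.4% at 10 µM (23 to 44 calls per library).

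The Meg3 block spans the start printed above (chr12:109540893-109541071, 9 CpGs). It was at 94.1% and 81.2% in DMSO, 22.2% and 44.4% at 0.2 µM, 65.9%, 29.0% and 64.0% at 2 µM, with 90.2% and 88.2% at 10 µM. The 0.2 and 2 µM libraries overlapped each other and lay below DMSO, and the 10 µM libraries lay within the DMSO range. Falls were called at 0.2 µM (to 33.3% ± 15.7, SD, n = 2, from 87.7% ± 9.10, SD, n = 2; adjusted p = 0.00413) and at 2 µM (53.0% ± 20.7, SD, n = 3; adjusted p = 0.0319). Its deepest CpG had 2 to 7 reads, and neither fall was called with calls limited to it (0.144 and 0.296). The first was also lost without DMSO replicate 1 (0.0579) or 0.2 µM replicate 1 (0.0562), and the second without DMSO replicate 1 (0.279), DMSO replicate 2 (0.0664) or 2 µM replicate 2 (0.156). They were kept under 14 and 11 of 17 alternatives.

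Rasgrf1 encodes a guanine nucleotide exchange factor of Ras, known as a paternally expressed gene in brain. Its known control region lies about 30 kb upstream. In the window no CpG farther out than 23726 bp before the gene was kept, so no level can be given that far out. The farthest upstream block, starting at 23726 bp (7 CpGs), was at 2.94% and 11.1% in DMSO and had no call. The intermediate block, chr9:89909016-89909093 (5 CpGs), began 492 bp before the gene and ended 682 bp before its annotated start. It was at 55.1% and 33.3% in DMSO, 37.1% and 25.5% at 0.2 µM, 39.5%, 31.8% and 23.2% at 2 µM, with 19.3% and 25.0% at 10 µM. The first 3 groups overlapped, and only the 10 µM group lay wholly below both DMSO libraries. No change was called (adjusted p = 0.334, 0.307 and 0.186 against DMSO). Chosen on DMSO replicate 1, a second block entered the range and both together gave an exact permutation p of 0.00476 over the other 8 libraries. On DMSO replicate 2 no block of Rasgrf1 was in the range. That second block, chr9:89908680-89908744 (10 CpGs, pooled 66.7%), was at 62.7% and 72.2% in DMSO, 52.4% and 46.6% at 0.2 µM, 31.2%, 29.9% and 35.8% at 2 µM, with 52.8% and 47.8% at 10 µM. The 2 µM libraries were the lowest without overlap. Its fall at 2 µM (adjusted p = 0.000335) was lost only with limited calls (0.0618). Its fall at 0.2 µM (adjusted p = 0.0421) was lost without any of 5 libraries, DMSO replicates 1 (0.0527) and 2 (0.255), 0.2 µM replicates 1 (0.0649) and 2 (0.204) and 10 µM replicate 2 (0.0812), and with limited calls (0.350), and was kept under 9 of 19 alternatives. All 4 intermediate runs of 2 or more CpGs together, 18 CpGs, averaged 51.2% ± 4.55 (SD, n = 2) in DMSO and 26.7% ± 8.10 (SD, n = 2) at 0.2 µM. The average was 37.1% ± 3.09 (SD, n = 3) at 2 µM, and 10 µM gave 36.1% ± 3.07 (SD, n = 2). Of the 3 short runs among them, chr9:89909325-89909507 (9 CpGs, 50% in DMSO) was at 29.4% and 20% at 0.2 µM and between 48.3 and 63% at the higher doses. Each DMSO library had only 9 calls there, with 1 read at the deepest CpG. The DMSO level of this run, and its part in the average, therefore rest on very few DNA molecules. The run chr9:89993253-89993298 (2 CpGs), inside the gene, was at 64.3% in DMSO and 9.09% and 10.5% at 0.2 µM, with 23.8 to 50% at the higher doses. The run chr9:90045808-90045817 (2 CpGs), beyond the far end of the gene, had 2 to 10 calls in a library and was at 50% in DMSO.

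The levels at the lower 2 doses were then set beside each other. The median level of the 27 blocks was 66.8% in DMSO and 41.3%, 39.1% and 50.3% at 0.2, 2 and 10 µM. Over all 38469 blocks it was 57.8%, 19.5%, 33.8% and 44.9%. The mean at 2 µM was below that at 0.2 µM in 17 of the 27 blocks (63.0%), beside 9840 of all 38469 blocks (25.6%). Among blocks at 20% or more in DMSO these counts were 15 of 21 (71.4%) and 5196 of 24129 (21.5%). By gene, 10 of the 13 blocks of Gnas and 5 of the 7 of Igf2 were lower at 2 µM, as were 1 of 2 in Dlk1 and 1 of 4 in Rasgrf1. The Meg3 block was higher. The 10 of Gnas include a block at the unmethylated main start (0.463% at 0.2 µM and 0.353% at 2 µM). They also include the first start, where 42.6% and 16.4% were both above DMSO. Differences between these 2 doses were seldom called in a single block. Of the 27, 1 was lower at 2 than at 0.2 µM, the Igf2 block described above, and 1 was higher, the Gnas exon 1A stretch. From 2 to 10 µM 3 blocks rose, 1 of Igf2 and 2 of Gnas, beside 7.07% of all blocks, and no call between doses was kept with calls limited to the deepest CpG, neither here nor in the genome. Blocks of 1 gene are neighbours and share DNA fragments and libraries, so no test was made of these counts. The blocks of the 6 genes were also richer in CpGs, with a median of 7.41 per 100 bp beside 6.17 in all blocks, and the part of this in the counts was not tested.

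**Figure D5:**
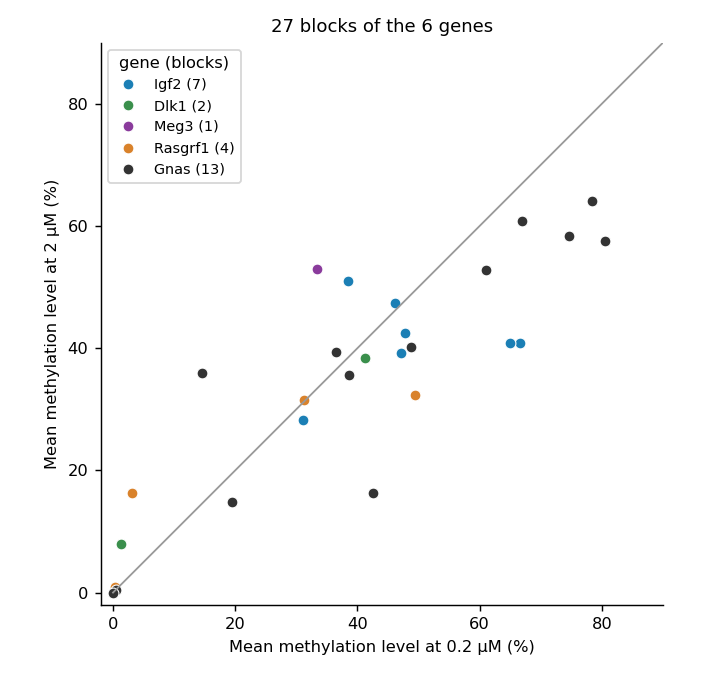
Mean methylation level (%) at 2 µM against that at 0.2 µM for the 27 blocks, coloured by gene, with the line of equal levels. In 17 blocks the point lies below the line, 10 of Gnas and 5 of Igf2 among them, while the Gnas exon 1A stretch (14.5 and 35.9%) and the Meg3 start (33.3 and 53.0%) lie above it.

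The 3 intermediate stretches were set against the 4112 other autosomal blocks at 35 to 65% in DMSO. Averaged over stretches, the members were at 47.8% ± 4.51 (SD, n = 2) in DMSO and 25.6% ± 0.0206 (SD, n = 2) at 0.2 µM. They were at 31.9% ± 2.55 (SD, n = 3) at 2 µM, and 10 µM gave 35.4% ± 2.84 (SD, n = 2). The other blocks averaged 51.5% ± 0.902, 23.5% ± 0.168, 33.3% ± 0.553 and 44.0% ± 0.0890 in the same groups. Both sets were chosen on DMSO. With both chosen on DMSO replicate 1, which gave 4 member stretches, the difference between them varied over the groups with an exact permutation p of 0.0310 in the other 8 libraries. Chosen on DMSO replicate 2, which gave 5 member stretches, the same permutation test gave 0.0798, so the call rests on the library that chose the stretches. Of the 4112 other blocks, 74.5% fell at 0.2 µM, 40% at 2 µM and 3.21% at 10 µM. By the nearest Euclidean distance over the 4 group means, among 22902 autosomal blocks with 30 or more calls in every library, the blocks most like the Igf2 stretch lay in Fhdc1, Slco5a1 and Irx3os (2.34 to 2.91 percentage points). For the Rasgrf1 stretch they lay in Tox, Zfp521 and Fbln7 (3.16 to 8.27 points), and for the Gnas stretch in Rasl10b, Pitx1 and Atcay (2.80 to 4.87 points).

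Genes around the 4 domains and other imprinted genes were read in the same way, with windows of 5 kb. Of 22 neighbouring genes, among them Ins2, Th, Cd81, Begain, Rtl1, Dio3, Ctsh and Ctsz, 16 had a block, and none of their 29 blocks was at an intermediate level in DMSO. Of these 29 blocks 15, 15 and 9 fell at 0.2, 2 and 10 µM, beside 55.8%, 44.5% and 12% of all blocks. None rose, beside 0.0702%, 0.122% and 0.151% of all blocks. All 15 other imprinted genes had a block, and 3 of their 31 blocks were intermediate, in Plagl1 (37.3%), Peg13 (60.3%) and Slc38a4 (54.3%). Beside them stand the 4112 intermediate autosomal blocks outside the domains studied, of 38469 blocks in the genome. The Plagl1 block went from 37.4% to 26.3% at 0.2 µM (adjusted p = 0.0201), and the Peg13 block from 60.9% to 43.7% at 0.2 µM (0.0409) and 40.6% at 2 µM (0.0114), with 64.5% at 10 µM. The Slc38a4 block had no call. Of the 31 blocks 19, 19 and 11 fell at the 3 doses, beside the same 55.8%, 44.5% and 12% of all blocks. In this list 1 rose at 0.2 and 1 at 2 µM. The median DMSO level was 89.8% in the imprinted list and 80.4% in the neighbours.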

How the data were processed

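RRBS libraries of Abl.1 cells were made with the NuGEN Ovation kit and 11 cycles of PCR, per the labels' protocols. The build mm10 comes from the submitters' processing notes, and for the aligner, the methylation caller and the read filters no name was given in the sources used here. The authors deposited 1 table per library, with a CpG position, the methylated over all reads as text, and a score from 0 to 1000. In every line this deposited score equalled the methylated share times 1000, rounded down, and only the reads were used. Of the measured positions in RefSeq promoter windows, 256267 of 256267 read CG, so files and table share their coordinates. Exons and introns were not used here.

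Blocks were set without methylation levels. A block's level was its methylated over all CpG calls. Each block was fitted with a quasi-binomial model with 1 level per group over all 9 libraries. Calls were first scaled to an effective number for their correlation within a library (0.00407 to 0.0478 by coverage class). The dispersion was moderated with limma 3.58.1 in R 4.3.3 and kept at 1 or more, and p-values were adjusted with Benjamini-Hochberg over all blocks, threshold 0.05. The prior of the dispersion was taken from blocks at 10 to 90%, a choice made after the data were seen because the model on simulated data made no call without it. "Limited calls", also added then, caps a block's effective calls at its deepest CpG, and so was the alternative with blocks of 2 or more CpGs. One listed marker is not reported here. The fit was tested on simulated data. Of 200 blocks per dose lowered by 1.5 in log odds, 53, 68 and 36 were called at 0.2, 2 and 10 µM. Among unchanged blocks 1, 3 and 0 were called. Most changes of that size were missed, so a block without a call can still have changed. The planned exact permutation test of a stretch's level enumerated 7560 ways of placing the 9 libraries in the 4 groups (smallest p 0.000794). Since DMSO chose the stretches, the report describes each stretch only by the test with 1 DMSO library used for the choice and left out. Its values with DMSO in both roles are printed only where the results are set against the processing. With 8 libraries the ways are fewer and the smallest p is higher, and DMSO is then 1 library. A low p from that test can therefore come from differences between the doses alone. Pairs of groups could not go below 0.333 (2 against 2) or 0.1 (3 against 2) and are not given. Python 3.11.15 and scipy 1.17.1 were used.

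The genes, lists and tests were chosen with earlier results of these data known. All 6 genes and every intermediate stretch of 2 or more CpGs are named, other blocks by range, and for a gene without one the block with the most calls. Some further blocks of Gnas, Igf2 and Rasgrf1, and the short runs of H19, were singled out after their values were seen. List genes are named where they have an intermediate block, and the neighbours named are examples. Same-numbered libraries were checked for pairing and were not paired.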

Additional observations from a re-analysis of the deposited data

How the results depend on the processing

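Of 783 values of blocks with a call under an alternative, 622 stayed on their side of the threshold, 160 lost the call and 1 turned. Some alternatives left out a library of a group outside the comparison. That cannot alter the change and moves only the shared spread, the scaling of calls and the adjustment. The 622, and the numbers of alternatives under which a call was kept, include these weak checks. The turn was the first Gnas start at 0.2 µM with neighbours up to 500 bp joined (-6.93 points). Limited calls ended 35 of 44 calls, leaving out DMSO replicate 1 ended 20 and DMSO replicate 2 ended 16. The cause of such losses was not tested. Same-numbered libraries were not paired: the correlations of their deviations were -0.00798 to 0.00530, and 4 of 9 libraries correlated best with their own number. With the replicate block, 1 of the 6 genes' blocks rose from 2 to 10 µM, 0 rose from 0.2 to 2 µM, and 1083 blocks of the genome did so from 0.2 to 2 µM; no other count moved by over 1.5 times.

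Blocks of the 6 genes that fell at 0.2 µM, at 2 µM and at 10 µM numbered 2, 2 and 1 of 8 with at least 5 reads at every CpG, and 3, 5 and 0 with limited calls. At 10 µM 8 fell with blocks of 2 or more CpGs and 3 with limma on levels. The rise at 0.2 µM was 0 with the 500 bp gap. Blocks higher at 10 than at 2 µM numbered 0 with 5 reads per CpG or limited calls, and 1 with limma on levels or equal weights of CpGs. Between 0.2 and 2 µM, 0 were higher with 5 reads per CpG, the 500 bp gap, limma on levels, limited calls or equal weights. Lower were 0 with the first 4 of these and 4 with reads as deposited. Leaving out 1 library gave 7 to 16, 11 to 17 and 0 to 6 falls at the 3 doses, 0 to 3 rises from 2 to 10 µM, and 0 to 1 higher and 0 to 2 lower blocks from 0.2 to 2 µM, with 1 to 1 rise at 0.2 µM.

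Over the genome, 5 reads per CpG (17807 blocks) gave 3680, 3349 and 1007 falls at the 3 doses, 12 rises at 0.2 µM, 32 higher and 14 lower blocks from 0.2 to 2 µM and 169 higher from 2 to 10 µM. Limited calls gave 12819, 7311 and 7 falls, 2 rises at 0.2 µM, and 0, 0 and 0 between doses. Blocks of 2 or more CpGs gave 37009, 29903 and 9245 falls and 3450 higher from 0.2 to 2 µM. A minimum of 20 calls gave 17 rises at 0.2 µM, and the 500 bp gap 2843 higher from 0.2 to 2 µM. Limma on levels gave 91 rises at 0.2 µM, 2170 falls at 10 µM and 62 lower from 0.2 to 2 µM. Reads as deposited gave 4142 higher from 2 to 10 µM, 4874 higher and 410 lower from 0.2 to 2 µM. Equal weights gave 1345 higher from 2 to 10 µM, 2629 falls at 10 µM, and 1074 higher and 75 lower from 0.2 to 2 µM. Leaving out 1 library gave 17175 to 21787, 11160 to 17511 and 543 to 5033 falls, 14 to 31 rises at 0.2 µM, 0 to 2570 higher and 0 to 278 lower from 0.2 to 2 µM, and 581 to 2088 higher from 2 to 10 µM.

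Intermediate blocks numbered 2 in Gnas with 5 reads per CpG, the 500 bp gap or equal weights, and 3 with a range of 30 to 70% or chosen on DMSO replicate 2. For H19-Igf2 they were 2 with blocks of 2 or more CpGs, the 30 to 70% range or DMSO replicate 2, and 0 with equal weights. For Rasgrf1 they were 0 with 5 reads per CpG or DMSO replicate 2, and 2 with 2 or more CpGs, the 30 to 70% range or DMSO replicate 1. Dlk1-Meg3 had 1 with 2 or more CpGs. Without 1 library they were 1 to 3 in Gnas, 1 to 2 in H19-Igf2, 0 to 2 in Rasgrf1 and 0 to 0 in Dlk1-Meg3. With DMSO both choosing the stretches and in the test, which is then no independent test, the permutation p over doses was 0.0333 for Gnas, 0.0532 for H19-Igf2, 0.271 for Rasgrf1 and 0.0865 for the difference from other intermediate blocks. Choosing on 1 DMSO library and testing the other 8 libraries keeps the choice out of the test. This permutation p was 0.05 for Gnas on DMSO replicate 1 and 0.00119 on replicate 2. For H19-Igf2 it was 0.106 on DMSO replicate 1 and 0.0238 on replicate 2. For Rasgrf1 it was 0.00476 on DMSO replicate 1, with no stretch chosen on replicate 2. In the other settings DMSO again both chose the stretches and was in the test. Those p-values show only how far the number moves and are no evidence of a change with dose. For Gnas the value was 0.0794 with equal weights. For H19-Igf2 it was 0.00635 with 5 reads per CpG, 0.0413 with 2 or more CpGs and 0.00952 with the 30 to 70% range. For Rasgrf1 it was 0.00714 with the 500 bp gap and 0.00318 with the 30 to 70% range. Without 1 library, where the set of stretches can change, it ranged over 0.00714 to 0.0857, 0.0190 to 0.133 and 0.00476 to 0.458 for Gnas, H19-Igf2 and Rasgrf1. For the difference from other intermediate blocks it was likewise 0.0325 with 2 or more CpGs, 0.0357 with the 500 bp gap, and 0.0155 to 0.221 without 1 library. With the choice kept out of the test, that difference gave 0.0310 on DMSO replicate 1 and 0.0798 on replicate 2. The change at 0.2 µM in that difference had the opposite sign with 5 reads per CpG (permutation p = 0.110) and on DMSO replicate 2 (permutation p = 0.0798). The median CpG had 3 to 5 reads, and the part of depth in these losses was not tested.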

Other observations

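Between Dlk1 and Meg3, outside the windows of both genes, 1 block of 5 CpGs was measured (chr12:109526678-109526737), 14259 bp before Meg3 and close to where the control region of this domain is known to lie. It was at 95% and 97.2% in DMSO, 60.7% and 43.2% at 0.2 µM, 54.4%, 45.5% and 58.3% at 2 µM, with 61.8% and 81.9% at 10 µM. Every treated library was below both DMSO libraries. Falls were called at 0.2 µM (adjusted p = 0.00104) and 2 µM (adjusted p = 0.00101), also with limited calls (0.0243 and 0.0329), and not at 10 µM (0.0648). The block was chosen after its place was seen. The other runs between the 2 genes, and all 5 runs between H19 and Igf2, were too short or too shallow to be tested. Among them, 4 CpGs at chr12:109495354-109495434 were at 68.9% and 58.3% in DMSO, 33.3% and 27.8% at 0.2 µM, 38.0%, 51.9% and 38.3% at 2 µM, with 47.9% and 47.6% at 10 µM.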
